A study of Mus musculus with 2 samples.

Results

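The genes described here are those of the transforming growth factor beta (TGF-beta) signal: 3 ligands (Tgfb1, Tgfb2 and Tgfb3), 3 receptor chains (Tgfbr1, Tgfbr2 and Tgfbr3) and 4 SMAD proteins (Smad2, Smad3, Smad4 and Smad7). They were chosen by name, through the probe sets to which the array's annotation gives exactly that 1 symbol, and all 10 of the 10 were found, among 19937 genes named in that way. Each had a single probe set, so no choice between probe sets was needed. The study compared TR1 cells (type 1 regulatory T cells, CD4 T cells that make IL-10 without depending on FOXP3) from the small intestine of mice given anti-CD3 antibody, with 1 array for each of 2 genotypes. The first, called wildtype, carried an intact IL-10 receptor. The second, called impaired, was CD4-DNIL-10R transgenic: its name stands for a dominant-negative IL-10 receptor driven by regulatory elements of Cd4, which act in T cells at large and not in TR1 cells alone. Mice of both genotypes were given 2 intraperitoneal doses of 15 μg of the anti-CD3 clone 2C11, a day left between them, and killed 4 or 48 hours after the second, with the time not given per sample. The sources used here do not state strain, age, the number of animals pooled or the sort. The series title places the comparison under the question of what IL-10 receptor signalling does for these cells; the values below cover its TGF-beta pathway genes.

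TGF-beta is made as a precursor whose propeptide stays wrapped around the mature dimer, so the secreted ligand is latent until integrins, proteases or other matrix proteins release it. The free ligand brings together the type II receptor (Tgfbr2) and the type I receptor (Tgfbr1), which phosphorylates SMAD2 and SMAD3; these join SMAD4 and enter the nucleus, while SMAD7, itself induced by the signal, shuts the receptor off. In the intestine the pathway is known for restraining effector T cells, for inducing the epithelium-binding integrin CD103 and, with other cytokines, for directing CD4 T cells to FOXP3-positive regulatory or TH17 fates.

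All values are log2 expression made with RMA (robust multi-array average), and a difference is impaired minus wildtype, so that 1 is 2-fold. With 1 array per genotype there was no spread between replicates and no test: a difference describes these 2 arrays, not the genotypes. For scale, each difference was set beside those of the 11124 genes past a floor of 6.91 (the median over all probe sets) on the brighter array. Of these, 1.65% were at least 2-fold apart and 7.39% at least 1.5-fold apart, in either direction. Differences between -0.51 and 0.85 made up the middle 95%. Of the 11124, 5582 (50.2%) were above 0 and 5501 below. These counts became 6055 and 5069 after intensity-dependent (loess) centring, and 5825 and 5299 after centring on T cell genes. Counts above and below 0 in the lists that follow are to be read beside these. In a bulk sample, fewer cells of a type and less RNA per cell cannot be told apart.

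The genes of the pathway's core were close to equal on both arrays. Of the 10 members, 9 passed the floor, and Tgfb2 did not on either array. Among the 9, 0 were 2-fold apart and 0 were 1.5-fold apart; 5 were brighter in the impaired sample and 4 dimmer, and 6 and 3 after intensity-dependent centring. Their median difference was 0.01, against 0.00 for all genes past the floor. The differences ran from -0.43 for Tgfbr1 to 0.17 for Tgfbr3. With backgrounds of 1.65% and 7.39%, 9 genes with none past either fold are near what the arrays show at large.

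**Figure D1:**
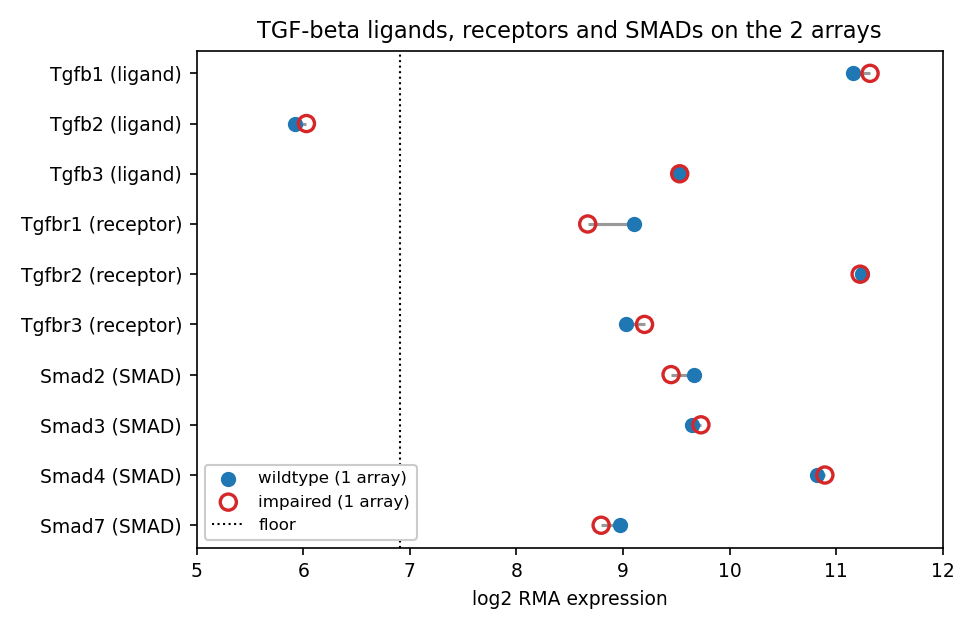
Log2 RMA expression (horizontal axis) of the 10 members on the wildtype array (filled blue) and the impaired array (open red); grey lines join the 2 values of a gene and the dotted line is the floor of 6.91. The longest line is that of Tgfbr1, from 9.10 down to 8.67, and Tgfb2 alone lies left of the floor; levels of different genes are not to be compared, since probe sets differ in brightness.

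Among the ligands, Tgfb1, the form that T cells and most other immune cells make, was at 11.16 on the wildtype array and 11.32 on the impaired one. The difference of 0.16 (1.12-fold) was matched or exceeded in size by 53.1% of all genes past the floor. Tgfb3, a ligand that matrix-producing cells and some TH17 cells make, was at 9.53 on both arrays, a difference of 0.01. Tgfb2, best known from epithelial and stromal tissue, was at 5.92 and 6.03. Both of its values lay below the floor, so its difference of 0.11 gives no reliable size. Neither of the ligand genes past the floor, Tgfb1 and Tgfb3, was thus more than 0.16 apart on the log2 scale.

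What makes TGF-beta available was described by 19 genes of latency and activation, of which 18 were measured and 15 passed the floor. Of these, 9 were above 0 and 6 below, the median was 0.19, and 1 was 2-fold apart; 2 of the 15 passed on the impaired array only. Mmp9, a matrix protease that can release latent TGF-beta and that neutrophils carry in granules, was at 7.04 on the wildtype array and 8.24 on the impaired one, a difference of 1.21. Thbs1, thrombospondin 1, a matrix glycoprotein that activates the latent complex, went from 6.95 to 7.82 (0.87). Both wildtype values lay just above the floor, where RMA compresses folds. Itgb1, the integrin beta 1 chain, differed by 0.33 and Ltbp2, a latent TGF-beta binding protein family member, by 0.32. Ltbp2 was at 6.87 on the wildtype array, below the floor, and passed it on the impaired array only.

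The main genes of ligand cleavage, anchoring and integrin release in T cells, named here after their values were seen, differed by small amounts in both directions. Itgav, the alpha v chain, was at 11.25 on the wildtype array and 11.05 on the impaired one (-0.20), and Itgb8, its beta partner on T cells and dendritic cells, at 9.24 and 9.06 (-0.18). Furin, the convertase that cuts the TGF-beta precursor, was at 11.999 and 12.25 (0.26). Lrrc32, which encodes GARP, the anchor of latent TGF-beta on regulatory T cells, was at 6.85 and 7.05 (0.20), below the floor on the first array and above it on the second. None of these 4 reached 1.5-fold.

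Markers of other intestinal cells were brighter in the impaired sample in the same comparison. Of 9 neutrophil markers 8 were brighter, with values from 5.71 to 7.74 on the wildtype array and from 6.49 to 9.58 on the impaired one, and their summed linear level was 3.46-fold higher. Among them Mmp8 differed by 2.35, from a wildtype value of 6.545 below the floor, and S100a8 by 2.27, from 7.29. Of the 7 markers past the floor, 3 passed on the impaired array only, Mmp8 among them. Camp and Elane stayed below the floor on both arrays. All 10 macrophage markers were brighter too (summed level 1.34-fold), from 5.08 to 10.25 on the wildtype array and from 5.24 to 10.33 on the impaired one, but 6 of the 10, Csf1r and Adgre1 among them, were below the floor on both. Of the 4 past it, Lyz2 and Cd14 differed by 1.78 and 0.98, and Cd68 and C1qa by only 0.09 and 0.18. Cd14 and C1qa passed on the impaired array only. The part of these cells in the Mmp9 and Thbs1 differences was not tested.

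Tgfbr1, the type I receptor kinase (ALK5) that hands the signal to SMAD2 and SMAD3, had the largest difference of the members. It was at 9.10 on the wildtype array and 8.67 on the impaired one, a difference of -0.43, or 1.35-fold dimmer. Of all genes past the floor, 4.21% had a lower difference and 13.6% one of at least that size. Beside the 2604 genes whose mean signal lay within 0.5 of its own, 5.38% had a lower difference, and the middle 95% of theirs ran from -0.52 to 0.91. Tgfbr1 was thus toward the lower edge of the arrays' spread and inside it. Its difference ranged from -0.43 to -0.39 under the alternatives for centring and offset, while a change of floor cannot alter a single gene's value.

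Tgfbr2, the type II receptor that binds the ligand first and activates the type I chain, was at 11.24 on the wildtype array and 11.23 on the impaired one. This difference of -0.02 turned to 0.04 after intensity-dependent centring, so it has no direction. The log2 difference of Tgfbr1 minus that of its partner was -0.415. Tgfbr3, betaglycan, a co-receptor that presents ligand to the type II chain, was at 9.03 and 9.20, a difference of 0.17. The receptor chains thus did not differ in a common direction, and the type I chain stood furthest from 0.

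The upstream regions of the 2 signalling receptors are shown because Tgfbr1 had the largest member difference and Tgfbr2, with which it works, had nearly none; the array's single Tgfbr1 probe set does not separate the 2 starts listed for that gene. RefSeq windows (GRCm38.p6) of 5 of the 10 members were used, 6 windows in all, and the 250 bases before each start were searched. Any member windows on a chromosome left out of this search were not looked at. The remaining members are therefore not shown to lack a window. Capitals mark the SMAD box (CAGAC, or GTCTG on the other strand) and the GC box bound by SP1 (GGGCGG, or CCGCCC); the motifs do not overlap each other. The first Tgfbr1 window is chr4:47352972-47353221 (plus strand), the second chr4:47385966-47386215 (plus strand), and that of Tgfbr2 chr9:116175364-116175613 (minus strand).
Tgfbr1 first start: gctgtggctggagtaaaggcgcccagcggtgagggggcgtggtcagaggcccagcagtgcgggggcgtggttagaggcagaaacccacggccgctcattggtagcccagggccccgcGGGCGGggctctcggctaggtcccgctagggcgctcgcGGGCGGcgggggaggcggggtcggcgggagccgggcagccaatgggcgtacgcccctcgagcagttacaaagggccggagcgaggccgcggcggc
Tgfbr1 second start: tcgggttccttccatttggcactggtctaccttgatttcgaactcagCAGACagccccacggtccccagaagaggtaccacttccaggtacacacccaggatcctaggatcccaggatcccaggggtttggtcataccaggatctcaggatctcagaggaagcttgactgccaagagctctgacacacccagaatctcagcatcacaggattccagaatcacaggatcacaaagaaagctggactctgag
Tgfbr2: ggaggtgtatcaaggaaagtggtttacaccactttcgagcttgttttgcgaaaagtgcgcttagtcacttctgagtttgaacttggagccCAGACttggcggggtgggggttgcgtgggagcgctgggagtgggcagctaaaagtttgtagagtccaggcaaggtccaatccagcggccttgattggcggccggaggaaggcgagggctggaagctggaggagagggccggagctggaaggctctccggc

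In the first Tgfbr1 window 2 GC boxes and 0 SMAD boxes were found, with 74.8% of bases G or C. The second held 1 SMAD box and 0 GC boxes, at 52.8% G or C, and the Tgfbr2 window 1 SMAD box and 0 GC boxes, at 58.4%. Of 32851 RefSeq windows of the same length, 42.2% held a SMAD box and 32.7% a GC box, so either motif is common. A match describes letters and not binding. Tgfb1 had 5 GC boxes and Smad3 had 2, both with 0 SMAD boxes, while Tgfb2 had 2 SMAD boxes, 0 GC boxes and 1 TATA box (TATAAA, or TTTATA on the other strand), which 12.4% of windows hold.

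The receptor-regulated SMADs differed in opposite directions by small amounts. Smad2, which with SMAD3 carries the signal to the nucleus, was at 9.67 on the wildtype array and 9.45 on the impaired one (-0.22). Smad3, which unlike the main form of SMAD2 binds DNA itself, was at 9.65 and 9.73 (0.08). Smad4, the common partner of both, was at 10.82 and 10.89 (0.07). Differences at least as large as that of Smad2 were found in 40.1% of all genes past the floor, and as large as that of Smad4 in 78.2%.

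Smad7, the inhibitory SMAD that recruits ubiquitin ligases to the receptor and is itself a direct target of the signal, was at 8.97 on the wildtype array and 8.80 on the impaired one. Its difference of -0.18 was matched or exceeded in size by 49.1% of genes past the floor. The 4 SMAD genes together had a median of -0.05, with 2 above 0 and 2 below. Smad2, Smad7 and Tgfbr1 were lower under each alternative run, and Tgfb1, Tgfb3, Tgfbr3, Smad3 and Smad4 higher.

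**Figure D2:**
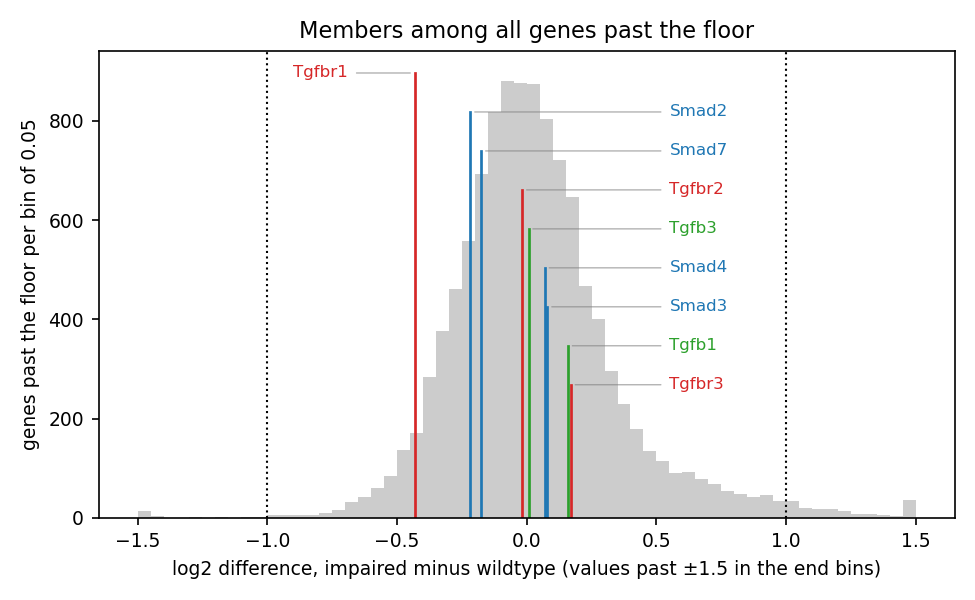
Histogram of the log2 differences (impaired minus wildtype) of the 11124 genes past the floor, in bins of 0.05, with the 9 members past the floor as vertical lines (green ligands, red receptors, blue SMADs); line heights only separate the names and dotted lines mark 2-fold. The members lie between -0.43 and 0.17, with Tgfbr1 furthest from 0.

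Of the negative regulators, 16 of 16 passed the floor, with a median of 0.02, 9 above 0 and 7 below (11 and 5 after intensity-dependent centring, and likewise after centring on T cell genes); 0 were 2-fold apart. Nedd4l, a ubiquitin ligase that marks activated SMAD2 and SMAD3 for degradation and is also made by epithelium, went from 7.78 to 8.71 (0.93) and was the only one past 1.5-fold. Nedd4, a related ligase, differed by 0.21. The co-repressors Ski and Tgif2, which hold SMAD complexes inactive on DNA, each differed by 0.15. Pmepa1 and Skil, which TGF-beta induces as feedback inhibitors, were at -0.15 and -0.13. Differences of at least these sizes were found in 56.3% and 60.7% of all genes past the floor. Both were named after their values were seen, as was Ldlrad4 of the same list, at 0.01. Enterocyte markers were brighter in the same sample, 11 of 11, from 8.19 to 11.80 on the wildtype array and from 9.38 to 12.55 on the impaired one (summed level 1.72-fold), with Sis at 1.77 and Alpi at 1.22. The part of epithelial RNA in the Nedd4l difference was not tested.

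Genes that TGF-beta induces in T cells or other cells were counted next, over 25 names, of which 22 were measured and 20 passed the floor. Of these, 14 were above 0 and 6 below, with a median of 0.10, and 1 was 2-fold apart. It was Tgfbi, a matrix protein named for its induction by TGF-beta and made by macrophages and stroma, at 8.96 on the wildtype array and 10.12 on the impaired one (1.16). Id1, an inhibitor of basic helix-loop-helix factors that BMP signals also induce, differed by 0.58, Tsc22d1 by 0.47 and Cdkn2b, a cell cycle inhibitor, by 0.43. Wildtype values of Cdkn2b (6.89) and Tsc22d1 (6.92) lay just below and just above the floor, and 2 of the 20 passed it on the impaired array only.

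Values of 7 further induced genes that T cells express, named after their values were seen, ran from -0.21 to 0.24. Adgrg1 (0.39), Id3 (0.34) and Car2 (0.33), of the same list and also named after their values were seen, lay above that range. No gene of the list past the floor lay below it. Itgae, the CD103 chain that binds epithelial E-cadherin, was at 12.23 on the wildtype array and 12.12 on the impaired one (-0.11). Ccr9, the homing receptor of the small intestine, was at 13.07 and 13.09 (0.02), and Nt5e, the ectoenzyme CD73, at 12.05 and 12.13 (0.07). Foxp3, which defines the other main class of regulatory T cells, stood at 7.83 and 7.87 (0.04). The aryl hydrocarbon receptor gene Ahr differed by 0.24, Rgs16, a regulator of G protein signalling, by -0.21 and Cd101, a surface protein of resident T cells, by 0.17. Epithelial, neutrophil and macrophage markers, given above, were brighter in the impaired sample, as were 7 of 10 stromal and endothelial markers. Over these 10 the values ran from 5.16 to 8.14 on the wildtype array and from 5.02 to 8.53 on the impaired one (summed level 1.15-fold); Lum and Kdr were dimmer (-0.14 and -0.06), Vwf was equal and 5 were below the floor on both arrays. Pdgfrb, which passed on the impaired array only, differed by 0.69 and Pecam1 by 0.40. The part of these cells in the Tgfbi difference was not tested.

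Among 17 genes that TGF-beta is known to repress in T cells, 16 passed the floor, 10 above 0 and 6 below, with a median of 0.11; 3 of the 16 passed on the impaired array only. Il2, a T cell growth factor whose promoter SMAD3 represses, was at 6.32 on the wildtype array and 7.40 on the impaired one (1.09), the only one past 2-fold, with the wildtype value below the floor. Il4, the TH2 cytokine, went from 8.28 to 9.13 (0.86) and Myc, a growth regulator, from 10.82 to 11.23 (0.41). Fasl, a death ligand, went the other way, from 11.21 to 10.90 (-0.31). The lineage factors Tbx21, Eomes and Gata3 differed by 0.10, 0.26 and 0.08, and the granule genes Gzma and Prf1 by -0.26 and -0.28, all named after their values were seen. Cd8a, which marks T cells that also carry these granules, was at 12.12 on the wildtype array and 11.42 on the impaired one (-0.70). Cd8b1 was at 9.80 and 9.72 (-0.09), a size matched or exceeded by 72.8% of all genes past the floor. The summed level of the pair, 0.671 of the wildtype one, follows mainly the brighter Cd8a. The part of CD8 T cells in the granule values was not tested.

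The pathway's SMAD-independent branch, in which the kinase TAK1 (Map3k7) and TRAF6 lead to p38 and JNK, had a median of -0.02 over 10 genes, all past the floor. Of these, 3 were above 0, 6 below and 1 at 0, which became 6 above and 4 below after intensity-dependent centring. Tab1, an activator of TAK1, was highest at 0.35 (7.09 and 7.45), Map2k4, a kinase of JNK, was lowest at -0.24, Map2k3, a kinase of p38, was at 0.20 and Mapk8, JNK1 itself, at -0.12. None was 1.5-fold apart.

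Parallel branches of the family use other receptors and SMADs. Of 12 other receptor and receptor-like genes of the family, most of them for activins and bone morphogenetic proteins (BMPs), 6 passed the floor. Of the 6, 1 passed on the impaired array only, and the median was 0.06. The BMP receptor Bmpr1a was highest at 0.36 (7.62 and 7.98), and the activin receptor Acvr2a lowest at -0.29 (8.53 and 8.25). Acvrl1, a type I receptor of endothelium and the gene past the floor on the impaired array only, differed by 0.25 and Acvr1b, the activin type I receptor, by -0.15. The BMP-regulated SMADs differed in opposite directions, Smad1 by 0.25 (7.54 and 7.80) and Smad5 by -0.24 (8.15 and 7.91). Among 11 SMADs and partners past the floor the median was 0.05, with Usp9x, which removes ubiquitin from SMAD4, at -0.23 and Trim33, a SMAD4 ligase and SMAD2/3 partner, at -0.18.

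Of 18 other ligands and traps, 17 were measured and 10 stayed below the floor on both arrays. The 7 past it were all above 0, with a median of 0.20, but 4 of them passed on the impaired array only, so the filter itself fixed their direction. Dcn, decorin, a matrix proteoglycan that binds TGF-beta and is made by fibroblasts, went from 6.11, below the floor, to 7.29 (1.18) and alone passed 2-fold. Bmp7 differed by 0.33, Bmp1, a procollagen protease that also frees latent ligand, by 0.24, and Bmp6 by 0.20. Of the 10 stromal and endothelial markers given above 7 were brighter in the same sample; Lum, another proteoglycan of fibroblasts, was below the floor on both arrays and differed by -0.14. The part of stromal cells in the Dcn value was not tested.

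**Figure D3:**
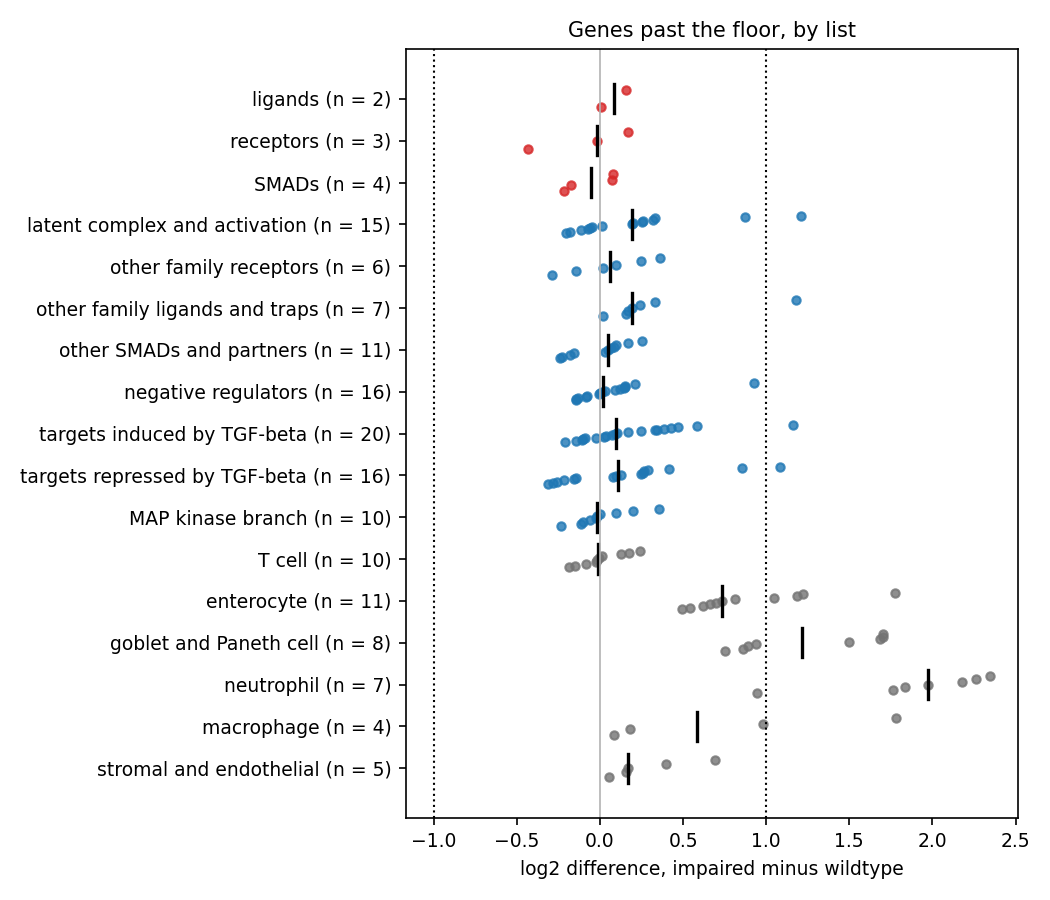
Log2 differences (impaired minus wildtype, horizontal axis) of the genes past the floor in the member groups (red), the pathway lists (blue) and 6 of the cell marker lists (grey); each point is a gene, black bars are medians and dotted lines mark 2-fold. Members lie within 0.43 of 0, and 4 pathway genes (Mmp9, Dcn, Tgfbi and Il2) lie beyond 2-fold. The plotted enterocyte, goblet and Paneth, neutrophil, macrophage, and stromal and endothelial markers all lie to the right of 0. The filter itself fixed that direction for 3 of 7 neutrophil and 2 of 8 goblet and Paneth markers. It did so for 2 of 4 macrophage and 2 of 5 stromal and endothelial markers too. These passed the floor on the impaired array only. Markers below the floor, the dimmer Elane, Lum and Kdr among them, are not plotted.

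The cell label was checked against its markers. Il10, Lag3, Itga2 (CD49b) and Cd4, which together mark TR1 cells, lay between 9.80 and 13.14 on the wildtype array and between 9.91 and 13.18 on the impaired one, and differed by at most 0.10. The 10 T cell markers measured had a median difference of -0.01 (from 10.95 to 13.66 on the wildtype array and from 10.93 to 13.57 on the impaired one), led by Thy1 at 0.24 and Cd3g at -0.19. Il10ra, the gene of the altered receptor chain, was at 9.92 on the wildtype array and 12.30 on the impaired one; whether its probe set reads the transgene is not known here. Natural killer cell markers were below the floor on both arrays, 3 of 3, and so were 5 of 6 B cell markers and 3 of 5 dendritic cell markers; Cd79b differed by 0.60, Itgax by 0.34 and Xcr1 by -0.03. Goblet and Paneth cell markers were brighter in the impaired sample, 8 of 8 (median 1.22, Ang4 1.71 and Lyz1 1.70). They ran from 6.88 to 12.17 on the wildtype array and from 8.57 to 12.92 on the impaired one. Ang4, the lowest on the wildtype array, lay just below the floor there. Lyz2 and Cd14 of the macrophage list were brighter by 1.78 and 0.98. Acinar pancreas markers were dimmer, 5 of 5 (median -1.71, Ctrb1 -2.33 and Cpb1 -1.997), from 8.65 to 11.905 on the wildtype array and from 7.14 to 9.66 on the impaired one. Bright markers of other cells were thus present on both arrays.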

How the data were processed

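RNA of 1 sample per genotype was hybridised to an Affymetrix array after oligo(dT) reverse transcription and biotin labelling, per the labels' protocols. The deposited values are log2 expression of 34760 probe sets, which the authors made with affy and RMA (background correction, equal distributions, probe set summary), per the submitters' processing notes; the sources used here name no version, build or annotation. The array medians were 6.89 and 6.92. Of the probe sets, 21640 had 1 symbol in GEO's platform annotation, 1321 several and 11799 were not listed; only the first were used. A gene took its probe set with the highest mean. No detection call or scanner file was at hand, so precision is limited by the number of arrays.

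Differences, counts and medians were computed with Python 3.11.15, numpy 2.4.6 and pandas 2.3.3 (loess with statsmodels 0.14.6, figures with matplotlib 3.10.9), and the scripts were tested on simulated data. Members, lists and rules were chosen with earlier results of these data known. All 10 members are named, with the 4 largest absolute differences past the floor of each of 8 pathway lists, the 2 largest of 12 marker lists, and Il10ra. Other pathway genes are marked. Other markers (Camp, Elane, Csf1r, Adgre1, Cd68, C1qa, Lum, Kdr, Vwf, Il10 and Cd4) were named after their values were seen. Listed genes without a single-symbol probe set were not analysed here. Alternatives were the mean of probe sets, loess centring, centring on T cell genes, an offset of 32 on the linear scale, a stricter floor at the 75th percentile (8.86), none at all, and a 1.5-fold rule.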

Additional observations from a re-analysis of the deposited data

How the results depend on the processing

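Single members moved by at most 0.06 under any alternative, with no replicate spread to set this against, and Tgfbr2 alone changed sign (-0.02 to 0.04). With 1 probe set per member, averaging probe sets or changing the floor could not move a member's value. Centring on T cell genes moved all members by the same amount. Only loess centring and the offset could move them by different amounts. The member median ran from 0.01 to 0.07, and 0 members passed 2-fold, or 1.5-fold, under each setting. Of the list medians, those of the MAP kinase branch (0.009 after loess centring), of latency and activation (-0.046) and of the repressed targets (-0.031, both with the stricter floor) changed sign; with that floor the median of all genes was -0.052, with 3517 of 5949 below 0. The stricter floor also left no other ligand or trap. Mmp9, Dcn and Il2 lay below it on both arrays and so lost their 2-fold calls. Nedd4l and Thbs1 did too and lost their 1.5-fold ones. Tgfbi alone of the 4 pathway genes past 2-fold stayed, and 120 genes in all passed 2-fold in place of 184. With the offset Dcn and Il2 fell below 2-fold (0.90 and 0.85). The 1.5-fold rule took in 822 genes. Low signal limits the size given for Tgfb2, which lay below the floor on both arrays. It also limits the sizes of genes below the floor on the wildtype array only. Among these were Lrrc32, Ltbp2, Dcn, Bmp6, Acvrl1, Il2, Eomes, Cdkn2b and Id3, and the markers Mmp8, Cd14, Ang4 and Pdgfrb. No paired analysis was possible because each genotype had 1 array and the labels number no replicates.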
